A study of Zea mays with 29 samples.

Results

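Leaf RNA of maize (Zea mays) plants labelled tetrasomic, with 4 copies of the long arm of chromosome 1 (1L), was compared with that of diploid plants, which carry 2 copies. The comparison rests on 7 of the 27 RNA libraries of the series, 3 tetrasomic and 4 diploid, all from the first of its 2 dosage series. Both groups are otherwise diploid by their labels and come from the same tissue, leaf. Series 1 also holds 5 trisomic (3 copies), 3 haploid (1 copy) and 2 disomic haploid libraries (2 copies in an otherwise haploid genome), and series 2 holds 10 libraries of its own, of which 3 trisomic and 4 monosomic are used below. The submitters call the libraries biological replicates. The labels and design text do not say how the extra copies were introduced, nor the parental lines, plant age or growth conditions.

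Aneuploidy changes the copy number of a chromosome or arm while the rest of the genome stays as it was, so that the products of the varied arm are out of proportion to those of the other chromosomes. Responses are usually divided into cis, of genes on the varied arm, and trans, of genes elsewhere. A cis gene whose RNA follows its copy number shows a dosage effect, and one whose RNA stays level is dosage compensated. Trans genes can rise with the dose of the varied arm or fall with it, the latter being called the inverse effect, which is well known from maize aneuploids.

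The deposited count table lists 40306 gene identifiers, each ending in a running number, without names, functions or positions. Genes numbered 2682 to 5868, 3187 identifiers or 7.91% of the table, are called the segment below and stand for the varied part of 1L. These edges were found earlier in the same tetrasomic and diploid libraries, so the separation of genes inside and outside them is a description here. A search for edges in series 2 alone, trisomic against monosomic plants, gave 2712 to 5868, and tests on the segment used those edges.

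The 3 tetrasomic libraries held 18130088, 18126824 and 17594270 counted reads and the 4 diploid libraries 15862831, 14933497, 17777712 and 15722050. Diploid replicate 1 stood apart from the other diploids. Over genes outside the segment, the root mean square difference in log2 CPM (CPM is a count scaled to a common library size, here with TMM factors and a prior count of 2) was 0.915 to 0.993 between it and the other diploids, 0.547 to 0.632 among those 3, and 0.530 to 0.633 among the tetrasomics. Diploid replicate 1 was nearer to the tetrasomics, at 0.703, 0.855 and 0.755 from replicates 1, 2 and 3, than to any other diploid. Tetrasomic replicate 2 was nearer to diploid replicates 2, 3 and 4, at 0.809, 0.726 and 0.762, than to diploid replicate 1. It was nearest to the other tetrasomics, at 0.633 and 0.578. Because diploid replicate 1 stood apart, the counts of calls and the named genes are also given without it. The cause was not tested.

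The segment supplied 14.1% of all counted reads in tetrasomic leaves and 7.54% in diploid leaves. The share was 14.12, 14.12 and 13.95% in tetrasomic replicates 1 to 3 and 7.69, 7.47, 7.47 and 7.53% in diploid replicates 1 to 4. The groups lay far apart, and the spread within each was small, 14.1% ± 0.097 (SD, n = 3) against 7.54% ± 0.104 (SD, n = 4). The difference of 6.52 percentage points (SE 0.0762) had an exact two-sided permutation p of 0.0571, which is as low as 3 libraries against 4 allow, or 0.0857 after Benjamini-Hochberg adjustment over 3 library-level tests. Counted per read from the rest of the genome, reads from the segment were higher by a log2 of 1.00, against a log2 copy ratio of 1. Such sums rest largely on the most abundant genes. The 100 genes with the most reads held 32.1% ± 1.05 (SD, n = 3) of reads in tetrasomics and 35.8% ± 2.83 (SD, n = 4) in diploids. The value near 1 therefore does not describe the typical gene. Counts are relative within a library, so they do not show whether leaves held more or less RNA in all, and in bulk leaf a change in the number of cells of a type cannot be told apart from a change in RNA per cell.

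In mean log2 CPM the genes of the segment moved less than its summed reads. The relative expression of the segment, its mean log2 CPM minus that of all other tested genes, was 0.83, 0.89 and 0.88 in the tetrasomics and -0.0050, -0.050, -0.011 and -0.0050 in the diploids. The difference was 0.88 (log2, SE 0.02, exact permutation p = 0.0571, adjusted 0.0857), or 1.84-fold, and no tetrasomic library came near a diploid one. With medians over genes in place of means it was 0.94, and restricted to genes averaging 5 CPM or more 0.97. As a mean of log2(RPKM + 1), a scale that compresses genes of low level, it was 0.63. The prior count of 2 in log2 CPM also compresses genes of low level, and its part in the 0.88 was not tested. The number of genes outside the segment with at least 1 CPM showed no such separation, with 17092 ± 74.0 genes (SD, n = 3) for tetrasomics against 17070 ± 58.9 genes (SD, n = 4) for diploids (difference 22.2, SE 51.9, exact permutation p = 0.686, also adjusted). Inside the segment 1641 to 1680 genes reached 1 CPM in tetrasomics and 1558 to 1579 in diploids.

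**Figure D1:**
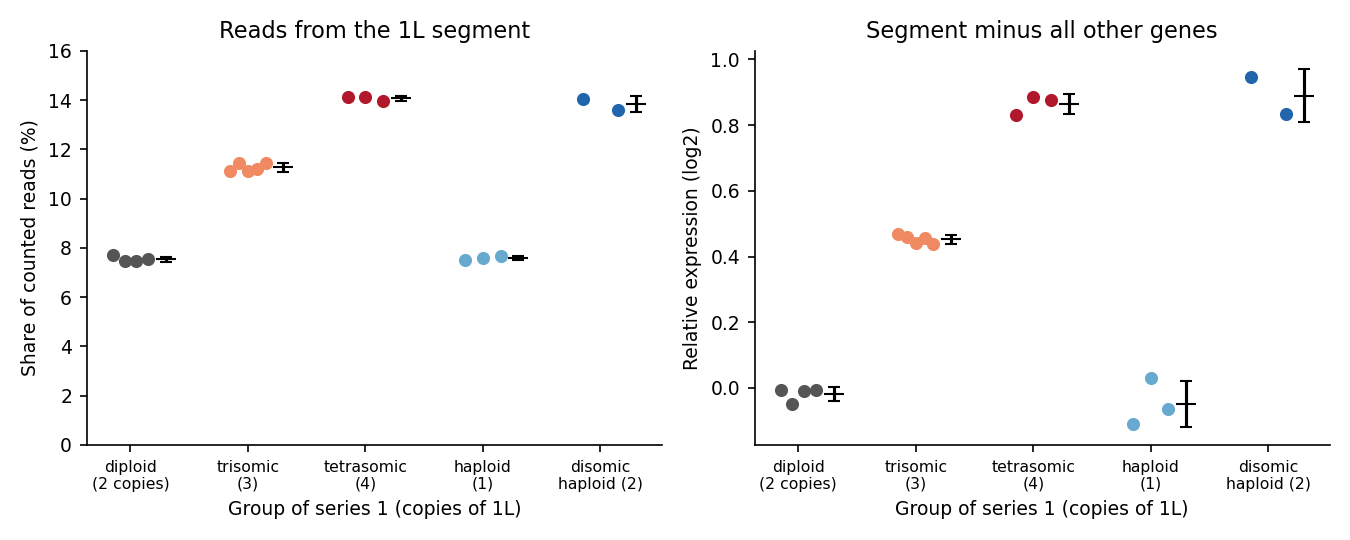
Share of all counted reads that came from the 1L segment (left, %) and mean log2 CPM of the segment minus that of all other tested genes (right) in each library of series 1; points are libraries, and the bar beside them is the mean ± SD. The 3 tetrasomic libraries sit between 13.95 and 14.12% and the 4 diploid ones between 7.47 and 7.69%.

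Gene by gene, edgeR's quasi-likelihood test called 1400 of 22435 tested genes (6.24%) at a Benjamini-Hochberg adjusted p below 0.05, with 4.58% of all tested genes called higher and 1.66% lower in tetrasomics. Of the 1901 tested genes inside the segment, 827 (43.5%) were called higher and 3 lower, or 877 and 5 of 1900 without diploid replicate 1. Of the 20534 outside it, 370 (1.80%) were called lower and 200 (0.974%) higher. Inside, the median gene changed by a log2 of 0.89, a 1.85-fold level, and outside by -0.06. The 570 calls outside moved with every library left out. Leaving out diploid replicate 1 gave 1575 calls there, and leaving out diploid replicates 2, 3 or 4 gave 261, 270 or 251. Leaving out tetrasomic replicates 1, 2 or 3 gave 171, 248 or 120. The total over all genes moved by more than 1.5 times when diploid replicate 1 (2457 calls) or tetrasomic replicate 1 (782), 2 (890) or 3 (719) was left out.

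Inside the segment the changes gathered about the copy ratio, with a wide spread. The middle 50% of genes had log2 fold changes from 0.56 to 1.16. Of the 1901 genes, 971 (51.1%) had a fitted fold between 1.6 and 2.5, 351 (18.5%) between 1.2 and 1.6, and 300 (15.8%) above 2.5. A further 172 (9.05%) lay between 0.8 and 1.2, 68 (3.58%) between 0.5 and 0.8, and 39 (2.05%) at 0.5 or less. Outside the segment 10733 of 20534 genes (52.3%) lay between 0.8 and 1.2, 1533 (7.47%) at 0.5 or less and 477 (2.32%) above 2.5. The filter ran over all 17 libraries of series 1, so mean levels in the 7 compared libraries began at 0 CPM inside and outside. The 0.8 to 1.2 class thus includes genes without reads here, which were not counted apart. All 3 tetrasomic libraries lay above all 4 diploid ones for 1266 genes inside (66.6%) and 1231 outside (5.99%), where the share over all tested genes was 11.1%. They lay below all diploids for 17 genes inside and 1973 outside (9.61%), where the share over all genes was 8.87%. These counts depend on the scaling between libraries. With TMM factors computed on genes outside the segment the median outside was -0.013, against -0.06 in the main fit. The counts above and below were not computed with those factors.

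**Figure D2:**
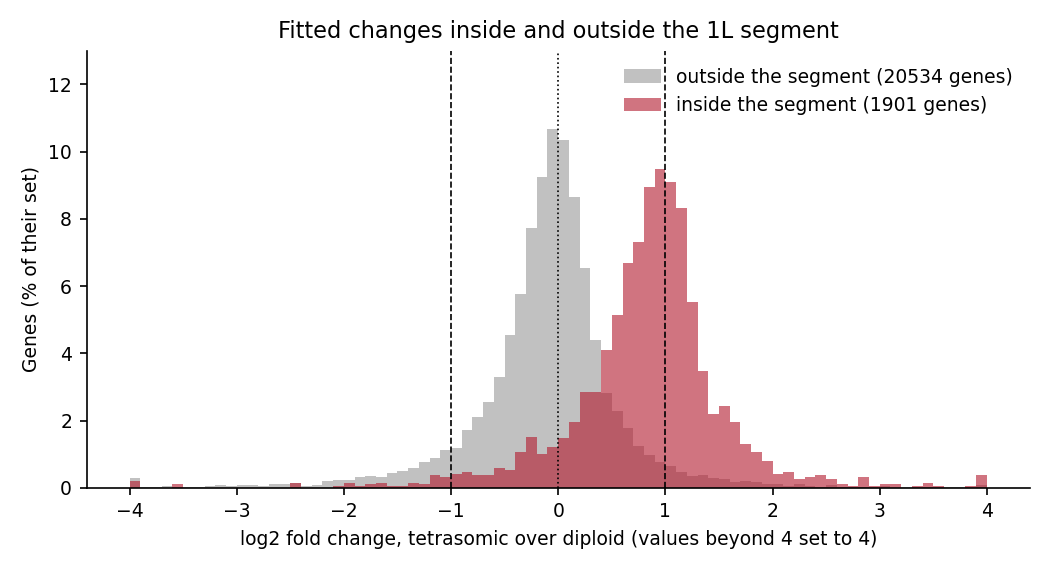
Distribution of the fitted log2 fold change of tetrasomic over diploid for tested genes inside (red) and outside (grey) the 1L segment, each as a percent of its set; dashed lines mark log2 values of -1 and 1. The inside genes centre on a median of 0.89 and the outside genes on -0.06, and both have long tails.

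How closely a gene of the segment followed the copy ratio varied with its level. Tested genes were divided into 4 equal classes by mean CPM over the 7 libraries. In the lowest class, from 0 to 2.15 CPM, the 409 segment genes had a median log2 fold change of 0.70 and quartiles of -0.01 and 1.45, and 7.58% were called higher. In the next class, from 2.17 to 8.97 CPM, the median was 0.88 and 34.5% were called higher. The class from 8.98 to 27.3 CPM had a median of 0.95 with quartiles of 0.68 and 1.17 and 59.6% called higher, and the highest class a median of 0.90 with quartiles of 0.65 and 1.10 and 62.3% called higher. The median standard error of a gene's log2 fold change fell over these classes from 0.63 to 0.32, 0.23 and 0.21.

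Segment genes that showed little or no rise were mostly of low level. A fitted fold of at most 1.2 was found for 279 genes (14.7%), with a median level of 1.97 CPM against 11.7 CPM for all tested genes of the segment. They made up 144 of the 409 genes of the lowest level class (35.2%) and 38 of the 599 genes of the highest (6.34%). The 279 were chosen by these libraries, so their change was read in 2 comparisons that use none of them. Between disomic haploids and haploids, a copy ratio of 2, their median log2 fold change was 0.02, against 0.90 for all 1901 genes and 1.00 for the 971 genes with a tetrasomic fold between 1.6 and 2.5. Between series 2 trisomics and monosomics, a copy ratio of 3, it was 0.91 over the 234 that were tested, against 1.44 for the 1770 segment genes tested there and 1.47 for the 948 of the 1.6 to 2.5 class. The 300 genes with a tetrasomic fold above 2.5 had medians of 1.30 in disomic haploids and, over the 249 tested, 1.77 in series 2. Over all segment genes the tetrasomic log2 fold change correlated with that of disomic haploids at Pearson's r = 0.54 and Spearman's rho = 0.49 (n = 1901 genes), and with that of series 2 trisomics over monosomics with r = 0.41 and rho = 0.39 (n = 1770 genes). Genes are not independent replicates, and the first pair shares 1 fit and its dispersions.

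Along the segment every window of 100 tested genes in identifier order was raised. The 19 window medians ran from 0.69 to 1.04 (log2), and each window held 21 to 60 genes called higher and at most 1 called lower. The lowest medians, 0.80, 0.69, 0.74, 0.82 and 0.79, were those of the first 5 windows, and the highest, 1.04 and 1.03, those of the 13th and 17th. The 50 tested genes just inside the first edge had a median log2 fold change of 0.97 and the 50 just before it -0.10. The 50 just inside the last edge had a median of 0.86 and the 50 just after it -0.01. The edges were found in the same libraries, so a step at them is a description. Series 2 alone gave the same last edge, 5868, but a first edge of 2712, at which these medians were not computed. The 204 windows outside the segment had medians between -0.19 and 0.07, with 0 to 7 called genes in each.

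**Figure D3:**
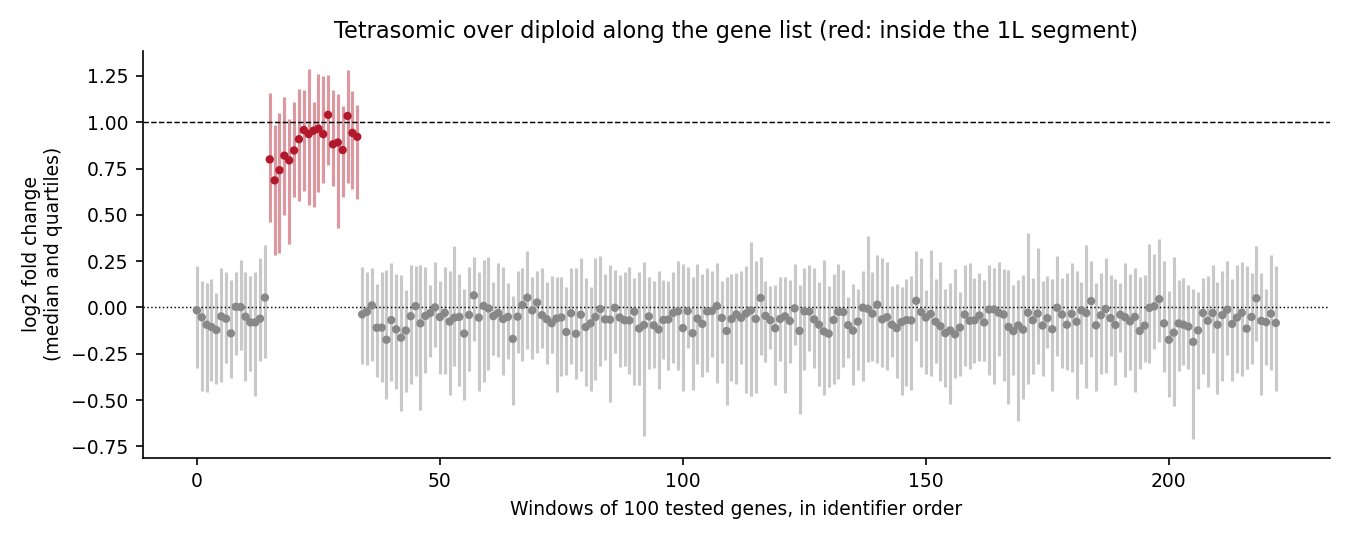
Median (points) and quartiles (bars) of the tetrasomic over diploid log2 fold change in windows of 100 tested genes in identifier order, with the 1L segment in red; the dashed line marks the log2 copy ratio of 1. The 19 windows of the segment have medians from 0.69 to 1.04 and the 204 others from -0.19 to 0.07.

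The most abundant gene called higher in the segment was Zm00004b004949. It stood at 945, 1017 and 1465 CPM in tetrasomic replicates 1 to 3 and at 464, 322, 405 and 396 CPM in diploid replicates 1 to 4. The lack of overlap was a condition of the choice. The group means of 1143 ± 282 CPM (SD, n = 3) and 397 ± 58.4 CPM (SD, n = 4) differed by more than the spread in either. edgeR put the rise at a log2 of 1.53 (SE 0.29, adjusted p = 0.00424), or 1.61 without diploid replicate 1 (adjusted p = 0.00563). Per length, its mean level was 376 RPKM in tetrasomics and 122 in diploids. Trisomics spanned 485 to 951 CPM, from just above the diploids to just above the lowest tetrasomic. Disomic haploids, at 918 and 889 CPM, lay above haploids, at 186, 300 and 459 CPM, by a log2 of 1.52 (SE 0.34, adjusted p = 0.0140 in edgeR). In series 2 trisomics over monosomics it was 0.79 (SE 0.53, adjusted p = 0.377).

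The 3 segment genes called lower in tetrasomics were all of low level, none reaching the mean of 5 CPM used to choose named genes, and the following was picked after its values had been seen. Zm00004b003623, the most abundant of them, stood at 1.02, 2.22 and 0.497 CPM in tetrasomics and at 2.43, 7.37, 9.14 and 7.96 CPM in diploid replicates 1 to 4. Diploid replicate 1 lay just above the highest tetrasomic and well below the other diploids. The fitted change was -2.43 (log2, SE 0.67, adjusted p = 0.0425 in edgeR), and -2.71 with that library left out (adjusted p = 0.0163). The call was lost when diploid replicate 2 (adjusted p = 0.0872), 3 (0.104) or 4 (0.0979) or tetrasomic replicate 1 (0.158) or 3 (0.189) was left out, without the filter (0.0607), with limma-trend (0.142) and with the replicate number as a block (0.0634). The count of 3 was no steadier, at 5 without diploid replicate 1, 1 without diploid replicate 2, 3 or 4, 0 without tetrasomic replicate 1 and 2 without tetrasomic replicate 2 or 3. In disomic haploids it was at 1.02 and 0.964 CPM, below haploids at 11.9, 9.22 and 3.17 CPM, a change of -3.02 (log2, SE 0.84, adjusted p = 0.0419 in edgeR). Series 2 trisomics over monosomics gave 0.63 (SE 0.23, adjusted p = 0.0968), a value of the other sign. Of the other two, one was called lower in disomic haploids, at -1.64 (log2, SE 0.42, adjusted p = 0.0282 in edgeR), and higher in series 2, at 1.16 (SE 0.29, adjusted p = 0.0189). The remaining one stood at -2.13 in disomic haploids (SE 1.00, adjusted p = 0.220) and was called lower in series 2, at -2.58 (SE 0.71, adjusted p = 0.0312).

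Outside the segment a small share of genes was called in trans, 370 lower and 200 higher in edgeR with all libraries, but 87 lower and 84 higher without tetrasomic replicate 1. The 200 genes called higher had a median log2 fold change of 1.36, or 2.57-fold, and a median level of 5.18 CPM. The 370 called lower had a median of -1.19, a level 0.438 times that of diploids, and a median level of 10.4 CPM. Among segment genes called higher the median was 1.08, at a higher median level of 24.6 CPM. These medians cover only genes that passed the test, so they do not compare the size of the response inside and outside. Over all tested genes the medians were 0.89 inside and -0.06 outside. At least a 2-fold change was reached by 140 of the higher and 234 of the lower genes. The split also differed between alternatives. It was 236 higher and 301 lower when TMM factors were computed on genes outside the segment, and 333 and 873 with DESeq2. Limma-trend on log2(RPKM + 1) gave 229 and 176, the opposite order, on values scaled to library totals without TMM factors.

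Diploid replicate 1 lay between the other diploids and the tetrasomics for the genes called lower. Over those 370, the median difference from the diploid mean was -1.16, -1.03 and -1.23 (log2 CPM) in tetrasomics, -0.37 in diploid replicate 1 and 0.13, 0.11 and 0.16 in diploid replicates 2 to 4. For the 200 called higher it was 1.19, 1.27 and 1.41 in tetrasomics, 0.17 in diploid replicate 1 and -0.11, -0.01 and -0.05 in the others. These genes were chosen on the same libraries, so the values describe the choice. Without diploid replicate 1, 501 genes outside the segment were called higher and 1074 lower, 7.69% of the 20494 tested there, where 11.0% of all genes were called, and 535 of the 570 were still called. In both sets it was the diploid nearest to the tetrasomics, so the added calls are no independent check. Leaving out any other library gave 120 to 270 calls outside the segment.

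The trans calls were then read in libraries of neither group compared. Disomic haploids and haploids were part of the same fit, with its filter and dispersions, while series 2 was fitted apart. Disomic haploids over haploids showed a median log2 fold change of 1.06 for the 200 higher genes and -0.98 for the 370 lower genes, against -0.08 for all 20534 tested genes outside the segment. Of the 200, 190 were above 0 there, as were 44.1% of all tested genes outside the segment. Of the same 200, 82 were called higher, where 4.66% of all genes and 1.65% of those outside the segment were. Of the 370, 361 were below 0, as were 55.9% of all tested genes outside. Of the same 370, 115 were called lower, where 2.08% of all genes and 2.25% of those outside were. In series 2 trisomics over monosomics the medians were 0.43 over 168 tested genes of the higher set and -0.61 over 365 of the lower set, against -0.09 for 19411 genes outside. Of the 168, 125 were above 0, as were 40.6% of the genes outside. Of the same 168, 37 were called higher, where 9.81% of all genes and 3.75% of those outside were. Of the 365, 323 were below 0, as were 59.4% of the genes outside. Of the same 365, 114 were called lower, where 4.95% of all genes and 5.30% of those outside were. Both sets thus had medians of the same sign in plants of another series. Over all genes outside the segment the tetrasomic log2 fold change correlated with that of series 2 at Pearson's r = 0.39 and Spearman's rho = 0.37 (n = 19411 genes, which are not independent).

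**Figure D4:**
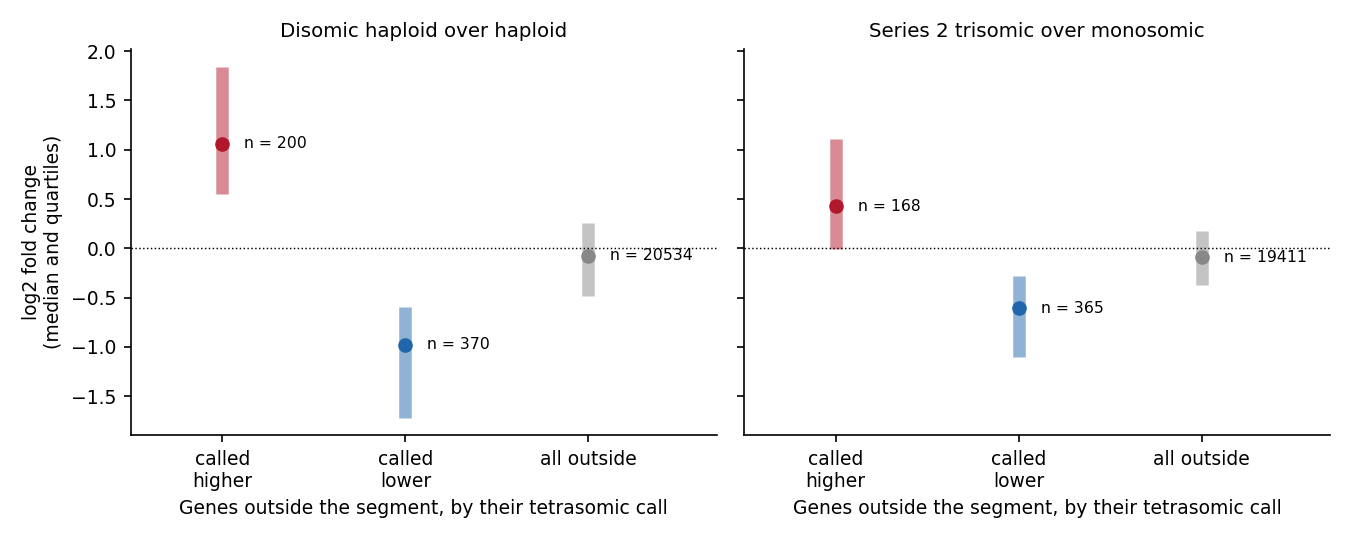
Median (points) and quartiles (bars) of the log2 fold change in 2 comparisons that share no library with tetrasomic over diploid, for genes outside the 1L segment called higher or lower in tetrasomics and for all tested genes outside it. The called-lower genes have medians of -0.98 and -0.61 and the called-higher genes 1.06 and 0.43.

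The largest rise outside the segment was that of Zm00004b008168. It was at 102.5, 71.2 and 122.8 CPM in tetrasomic replicates 1 to 3 and at 2.20, 3.72, 5.42 and 7.08 CPM in diploid replicates 1 to 4. Every tetrasomic library was about an order of magnitude above the highest diploid one. The fitted rise was 4.42 (log2, SE 0.58, adjusted p = 0.000298 in edgeR), and 4.19 without diploid replicate 1 (adjusted p = 0.000924). Trisomics lay between the groups without overlap, from 10.1 to 36.2 CPM with a median of 17.4. Haploids were at 0.576 to 2.83 CPM and disomic haploids at 23.9 and 82.1 CPM. The gene rose again in series 2, where trisomics exceeded monosomics by a log2 of 4.25 (SE 0.54, adjusted p = 0.000274 in edgeR). Per length, its mean level was 57.5 RPKM in tetrasomics and 2.43 in diploids.

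Among genes chosen in the same way, the largest fall outside the segment was that of Zm00004b031844. It was close to absent from tetrasomic leaves but varied widely elsewhere. Its 3 tetrasomic libraries held 2, 8 and 0 reads, or 0.107, 0.443 and 0 CPM. Diploid replicates 1 to 4 held 19, 454, 302 and 209 reads, or 1.13, 34.5, 19.0 and 14.2 CPM. The groups did not overlap, again a condition of the choice, but diploid replicate 1 lay much nearer to the tetrasomics than to the other diploids. The fitted change was -6.50 (log2, SE 1.77, adjusted p = 0.0398 in edgeR), and -6.89 with diploid replicate 1 left out (adjusted p = 0.0183). The call was lost without diploid replicate 2 (adjusted p = 0.0859), 3 (0.0703) or 4 (0.0666), without tetrasomic replicate 1 (0.150), 2 (0.0915) or 3 (0.165), without the filter (0.0847) and with limma-trend (0.0928). Trisomics ranged from 0.0616 to 24.6 CPM and haploids from 1.32 to 23.1 CPM, while disomic haploids were at 0 and 0.0602 CPM. The changes in disomic haploids over haploids, -8.35 (SE 2.71, adjusted p = 0.0769 in edgeR), and in series 2, -2.27 (SE 0.79, adjusted p = 0.0830), did not pass the test.

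**Figure D5:**
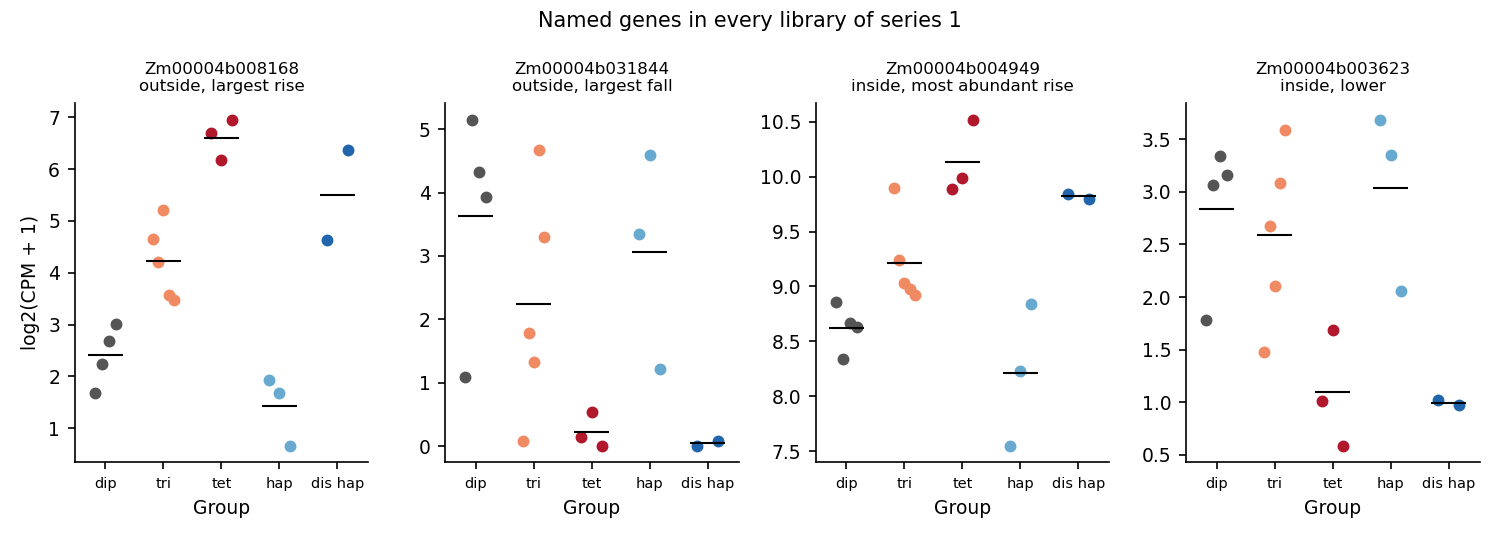
Level as log2(CPM + 1) of the 4 named genes in every library of series 1, with points for libraries and a line at the mean of these log2 values for diploid (dip), trisomic (tri), tetrasomic (tet), haploid (hap) and disomic haploid (dis hap) plants. In all 4 genes tetrasomics and diploids do not overlap, which was a condition of the choice for all but Zm00004b003623. In each except Zm00004b004949 diploid replicate 1 is the lowest diploid.

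Complete gains or losses of a transcript were rare. Only 1 gene had at least 10 reads in every tetrasomic library and at most 3 in all diploids together, a segment gene with 10, 18 and 10 reads against 1 read in all. Only 1 showed the reverse, a gene outside the segment with 18 to 40 reads per diploid library and 2 reads in all tetrasomics. Both were called in edgeR.

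The most abundant transcripts outside the segment tended to lower levels in tetrasomics without passing the test. Of the 100 genes outside it with the highest mean RPKM, from 528 to 16949 RPKM, 81 had a negative log2 fold change and 19 a positive one. Over all tested genes outside, 43.7% were positive. The median of the 100 was -0.46, against -0.06 for all tested genes outside. edgeR called 0 of the 100 lower and 1 higher, where 1.80% of all tested genes outside the segment were lower and 0.974% higher. Diploid replicate 1 shared this position, with a median difference from the diploid mean of -0.45 (log2 CPM), next to -0.48, -0.30 and -0.51 in tetrasomics and 0.19, 0.21 and 0.03 in diploid replicates 2 to 4. Without it 19 of the 100 were called lower and 3 higher, where 5.24% of genes outside were lower and 2.44% higher. Since it lay among the tetrasomics here, these added calls are no independent check. The median was -0.38 in disomic haploids over haploids and -0.02 in series 2 trisomics over monosomics. The 100 segment genes with the highest RPKM, from 63.5 to 4954 RPKM, had a median log2 fold change of 0.67, or 1.59-fold, with 33 called higher and 0 lower, where 43.5% of all segment genes and 62.3% of those in the highest CPM class were called higher.

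Against trisomics, the group nearest in copy number, tetrasomics differed in the same direction in the segment, but no single gene passed the test. The median log2 difference of tetrasomics over trisomics was 0.37 for the 1901 segment genes and -0.05 outside. edgeR called 0 of 22435 genes (0.0%) and limma-trend 0, although 2315 had an unadjusted edgeR p below 0.05. These were 679 of the 1901 segment genes and 1636 of the 20534 outside. DESeq2 called 423, of which 240 were segment genes higher in tetrasomics. Without trisomic replicate 1 edgeR called 21, and without tetrasomic replicate 1 it called 1. For Zm00004b008168 the difference was 2.32 (log2, SE 0.49, edgeR adjusted p = 0.0972).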

How the data were processed

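RNA was extracted with TRIzol, and TruSeq libraries of poly(A) RNA were made, per the labels' protocols. The submitters' processing notes name Bowtie, TopHat, Cufflinks and Cuffdiff; their versions and roles, and the build used, are not stated there. The deposited tables hold raw counts of reads per gene model and RPKM, which the authors computed from them (checked: 1 length per gene and each table total). 0 identifiers matched the reference table, so genes have no names here.

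All 17 libraries of series 1 were fitted together in edgeR 4.0.16 (R 4.3.3) with TMM, filterByExpr, group as the only term and robust quasi-likelihood tests, two-sided, after a test on simulated data. The biological coefficient of variation was 0.318. Series 2 was fitted in the same way. CPM values are scaled by TMM, except in counts of genes at 1 CPM and in the stricter filter, and 1 CPM is 13.2 to 18.6 reads in the 7 libraries; reads carry no molecular identifiers. Single values were compared over libraries by exact permutation tests.

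The segment, the gene sets and the alternatives were chosen with earlier results of these data known; the abundance and fold classes, the sets read in other libraries and the 100 most abundant genes were added after the values were seen. Named genes were called, reached a mean of 5 CPM and had groups without overlap: the largest rise and fall outside the segment and, inside it, the most abundant rise; no fall inside met the rule. DESeq2 1.42.0 and limma 3.58.1 served as alternatives. The replicate numbers are not stated to pair plants. An edgeR p-value sets a group difference against the spread within groups over all libraries of its fit, estimated with information shared across genes. The p-values refer to these libraries only. The DNA table and the RPKM of series 2 were not used here.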

Additional observations from a re-analysis of the deposited data

Results flagged for a closer look

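In 12 groups of 4 or 5 libraries checked for 1 library far from the rest, 2 were marked; chance alone marks about 1 in 20 such groups. The relative expression of the segment in diploid replicate 2 was -0.050 (log2), where the other diploids were between -0.011 and -0.0050, a gap that is small beside the 0.88 between tetrasomics and diploids. Zm00004b004949 stood at 951 CPM in trisomic replicate 1 and at 485 to 604 CPM in the other trisomics. Groups of 3, such as the tetrasomics, were not checked. Diploid replicate 1, which stood apart over all genes outside the segment, was not marked in any of these values.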

How the results depend on the processing

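The segment kept its direction in every alternative run. Leaving out 1 library at a time gave 719 to 2457 called genes, 597 to 877 segment genes higher and 0 to 5 lower, 50 to 501 genes higher and 70 to 1074 lower outside, and median log2 fold changes of 0.88 to 0.92 inside and -0.071 to -0.045 outside. The same gave 0.87 to 0.90 for the relative expression of the segment (exact p 0.1 to 0.133), 6.49 to 6.58 percentage points for its share of reads, and -17.0 to 56.5 for the difference in genes at 1 CPM outside it, which turned negative without tetrasomic replicate 2 (-17.0) or diploid replicate 2 (-2.67). Calls of tetrasomics over trisomics ranged from 0 to 21. Without a filter the medians were 0.86 inside and -0.0037 outside. With a mean of at least 5 CPM the median inside was 0.92 and 121 genes were higher outside. TMM outside the segment gave medians of 0.93 and -0.013 and 4 calls over trisomics. The compared libraries alone gave 0.91 and -0.041. DESeq2 called 2212 genes, with 333 higher and 873 lower outside and 423 over trisomics. Limma-trend gave 176 lower genes outside and medians of 0.67 and 0.028, on a log2(RPKM + 1) scale that understates changes of low genes. RPKM also lacks the TMM factors, which were 0.882 to 1.06 in diploids and 0.997 to 1.03 in tetrasomics. The 2 differences from the main fit were not tested apart. The edges found in series 2 left each count of calls as it was.

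Same-numbered tetrasomic and diploid libraries did not deviate together throughout, with correlations of 0.33, 0.29 and -0.061 for numbers 1 to 3, and tetrasomic replicates 1 and 2 but not 3 correlated best with their own number. With the number as a replicate block 936 genes were called, 111 higher and 157 lower outside, and the relative expression differed by 0.89, the share of reads by 6.52 points and genes at 1 CPM by 45.3 (exact p = 0.25, 0.25 and 0.75, where 3 pairs allow no less than 0.25). Depth limits the genes of low level most, and 3 against 4 libraries cannot reach an exact p of 0.05.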
